A study of Homo sapiens with 6 samples.

Results

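The transporters described here are 10 solute carrier genes that bring amino acids across the plasma membrane, namely *SLC7A11*, *SLC3A2*, *SLC7A5*, *SLC7A1*, *SLC7A6*, *SLC1A4*, *SLC1A5*, *SLC38A1*, *SLC38A2* and *SLC43A1*. They were listed by name as carriers of amino acids and cystine, and are 10 of the 61806 Ensembl genes in the count table. RNA was sequenced from 6 libraries of MV4-11, a monocytic acute myeloid leukemia (AML) line with an *FLT3*-ITD mutation and a *KMT2A* fusion. In 3 of them (shNC 1 to 3) the cells carried a control shRNA, and in the other 3 (shATGL 1 to 3) an shRNA against *ATGL*, the lipase that releases fatty acids from stored triglycerides. Both groups derive from one cell line, which the study grew in serum-containing medium, and its shRNAs were delivered by lentivirus. The labels give no time after infection, do not say which of the study's shRNA sequences each library carried, and do not say whether the replicates are separate cultures, so p-values measure the spread between these libraries, which may be technical. The comparison of the groups asks which transcripts change when *ATGL* is knocked down.

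Amino acid transporters set what a cell can build and how it handles oxidative stress. *SLC7A11* encodes xCT, which takes up cystine in exchange for glutamate and so supplies cysteine for glutathione, the cofactor that GPX4 uses to remove lipid peroxides, and blocking xCT with erastin triggers ferroptosis. xCT and the LAT-type carriers of the SLC7 family work only as light chains joined to the heavy chain encoded by *SLC3A2* (CD98). Leukemic cells depend on the uptake of glutamine and leucine, and leucine brought in by LAT1 (*SLC7A5*) in exchange for glutamine is one of the signals that activates mTORC1.

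Total counts ranged from 59674064 to 74808280 per library. All 12 markers of MV4-11 cells that were looked up, such as *LYZ*, *SPI1*, *CD33* and *HOXA9*, were detected and tested, while of 15 markers of lymphoid, erythroid, epithelial and fibroblast cells 9 had no count in any library and their summed level was between 2.59 and 4.63 CPM (counts relative to the TMM-normalized library size, as is usual for RNA-seq). The targeted gene, *ATGL* (listed as *PNPLA2*), had 101.1, 97.0 and 107.1 CPM for shNC 1, 2 and 3, then 102.4, 98.1 and 103.7 CPM under the shATGL label, so the label was not borne out by the transcript, and that group is named by its label throughout. Of 19149 genes that passed the filter on low counts, 1 (0.00522%) passed both thresholds of the study, a false discovery rate of 0.05 and a change of 2-fold, in edgeR's quasi-likelihood test, the unnamed ENSG00000258790, at 37.5 ± 3.75 CPM in shNC and 8.69 ± 0.917 CPM under the shATGL label (SD, n = 3 each). The libraries also differed in how their counts varied with the GC content and length of transcripts. Across 13741 genes, the deviation of a library from the mean of the 6 libraries had a Spearman's rho with GC content of −0.32 in shATGL 1 and −0.36 in shATGL 2, but of 0.46 in shATGL 3 and 0.36 in shNC 3, while it was −0.02 in shNC 1 and −0.10 in shNC 2. With transcript length the values were 0.31, 0.33, −0.07, −0.45, −0.20 and −0.07 in the same order. In its trend with GC content shATGL 3 stood apart from shATGL 1 and 2.

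Promoter sequences are shown for 4 of the 7 transporters whose windows hold matches to the motifs through which ATF4, in the amino acid response, and NRF2, in the oxidative stress response, are known to bind DNA. *SLC3A2* and *SLC7A1* are shown because both motifs match in 1 window, and *SLC7A5* and *SLC7A6* because they encode the main light chains of this line. The sequences are from RefSeq (GRCh38.p14), run 5′ to 3′ on the strand of the gene from 250 bases before to 50 bases after the start site, and cover 9 of the 10 members (*SLC7A11* is not among them). Capitals mark matches, on either strand, to TGATGNAA, a core of the composite element, or to TGACNNNGC, the core of the antioxidant response element, and the patterns do not overlap in the windows shown.
SLC3A2, chr11:62881449-62881748, plus strand: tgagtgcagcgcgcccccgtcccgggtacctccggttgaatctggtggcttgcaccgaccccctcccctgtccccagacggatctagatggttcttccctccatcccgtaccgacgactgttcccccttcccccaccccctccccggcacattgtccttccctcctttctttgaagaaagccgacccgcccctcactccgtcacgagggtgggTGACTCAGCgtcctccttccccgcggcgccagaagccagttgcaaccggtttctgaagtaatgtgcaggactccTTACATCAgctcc
SLC7A5, chr16:87869458-87869757, minus strand: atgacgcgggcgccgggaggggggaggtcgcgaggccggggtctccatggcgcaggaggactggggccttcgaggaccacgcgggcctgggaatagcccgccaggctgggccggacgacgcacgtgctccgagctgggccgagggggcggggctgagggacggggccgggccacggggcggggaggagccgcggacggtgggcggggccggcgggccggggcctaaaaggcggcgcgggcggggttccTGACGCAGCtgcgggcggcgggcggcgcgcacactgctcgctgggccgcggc
SLC7A1, chr13:29595639-29595938, minus strand: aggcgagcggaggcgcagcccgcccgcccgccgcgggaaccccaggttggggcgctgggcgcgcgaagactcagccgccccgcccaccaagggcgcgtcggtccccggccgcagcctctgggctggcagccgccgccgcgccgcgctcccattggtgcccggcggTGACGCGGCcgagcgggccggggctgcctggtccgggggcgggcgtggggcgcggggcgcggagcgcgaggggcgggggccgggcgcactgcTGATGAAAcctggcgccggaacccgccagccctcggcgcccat
SLC7A6, chr16:68264276-68264575, plus strand: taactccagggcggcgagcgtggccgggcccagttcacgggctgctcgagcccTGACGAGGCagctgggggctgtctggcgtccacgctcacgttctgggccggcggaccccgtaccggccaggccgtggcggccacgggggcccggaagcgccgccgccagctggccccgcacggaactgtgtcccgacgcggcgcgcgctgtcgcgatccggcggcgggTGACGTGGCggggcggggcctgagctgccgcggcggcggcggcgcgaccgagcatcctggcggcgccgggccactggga
TGATGNAA was present in 5 of the 16 promoter windows of the members (31.2%), which belong to *SLC3A2*, *SLC7A1*, *SLC1A4*, *SLC1A5* and *SLC38A1*, and in 3.62% of all 35116 windows in the table. TGACNNNGC was present in 5 of the 16 windows, of *SLC3A2*, *SLC7A5*, *SLC7A1*, *SLC7A6* and *SLC1A5*, and in 13.3% of all windows. Several members have more than one window, and a match describes letters and not binding.

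Per exon length, a glutamine and a leucine carrier stood highest in the family, and the cystine carrier was its rarest member. Levels of different genes are compared as RPKM, the CPM divided by the length in kilobases of all exons of the gene in GENCODE 29. *SLC1A5*, which encodes the glutamine exchanger ASCT2 (chromosome 19, 46774883 to 46788594), was at 92.0 ± 3.39 RPKM (SD, n = 3) in shNC and held 33.9% of the summed RPKM of the 10 genes. *SLC7A5* followed at 38.9 ± 0.837 RPKM (SD, n = 3), and *SLC3A2* at 33.8 ± 1.499 RPKM (SD, n = 3). These 3 genes, of which *SLC3A2* encodes a heavy chain and no carrier, held 60.7% of the sum, but 47.1% per coding length. *SLC7A1*, the CAT1 carrier of arginine and lysine, was at 26.2 ± 0.995 RPKM (SD, n = 3), and *SLC38A2*, a sodium-coupled importer of glutamine and small neutral amino acids, at 23.4 ± 2.62 RPKM (SD, n = 3). *SLC7A1* took place 3 per coding length and place 2 by CPM (202 ± 7.65 CPM in shNC, SD, n = 3). The middle of the order was taken by *SLC43A1*, a leucine carrier that needs no heavy chain, at 18.0 ± 0.509 RPKM (SD, n = 3) and by *SLC1A4*, the serine and alanine exchanger ASCT1, at 14.8 ± 0.237 RPKM (SD, n = 3). *SLC38A1* was at 12.98 ± 1.89 RPKM and *SLC7A6*, which exchanges arginine for glutamine, at 10.7 ± 0.426 RPKM (SD, n = 3 each). *SLC7A11* was at 0.504 ± 0.115 RPKM (SD, n = 3), 21.1 times below the next member and 182 times below *SLC1A5*.

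**Figure D1:**
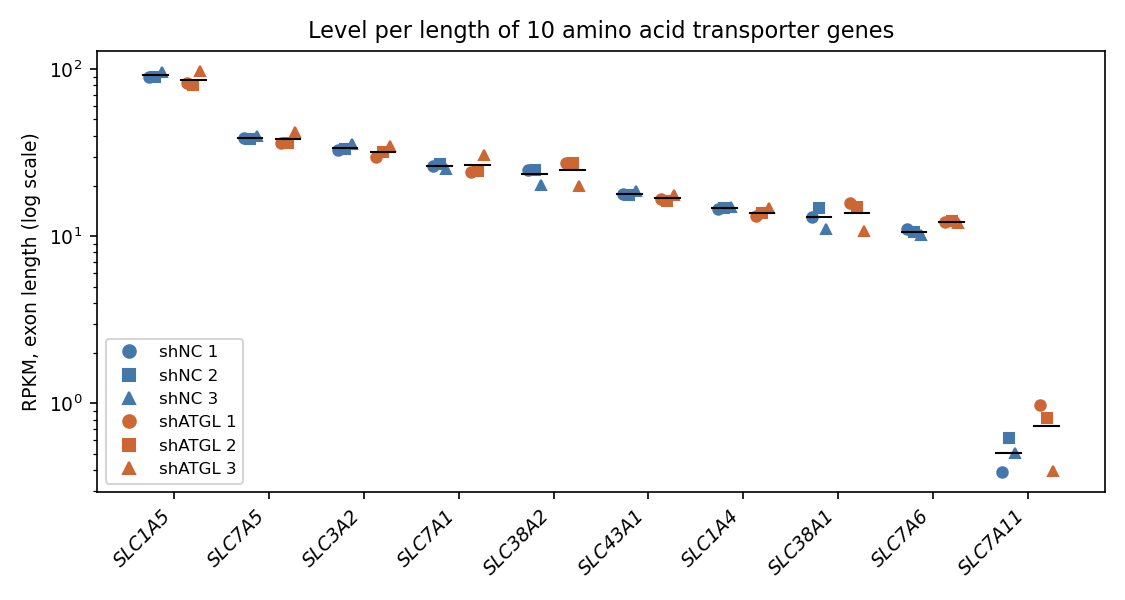
RPKM on exon length (log scale) of the 10 transporter genes in each library, ordered by the shNC mean; points are libraries and short lines are group means. *SLC1A5* is highest in all 6 libraries and *SLC7A11*, under 1 RPKM in each, is lowest.

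The order of the 10 means was the same under the shATGL label. Within shNC, 7 of the 9 pairs of neighbours had ranges that did not overlap, and the exceptions were *SLC1A4* with *SLC38A1* and *SLC38A1* with *SLC7A6*. Over all 6 libraries 5 of the 9 pairs were separate. *SLC3A2* overlapped *SLC7A1* in range but was above it within each of the 6 libraries, whereas *SLC7A1* was above *SLC38A2* in 4 of 6. The ends of the order were the same per exon length and per coding length. Per coding length, *SLC1A5* (189 ± 6.96 RPKM, SD, n = 3) and *SLC7A5* (121 ± 2.61 RPKM, SD, n = 3) were again first and second and *SLC7A11* (3.24 ± 0.735 RPKM, SD, n = 3) last, but *SLC1A5* then held 22.1% of the sum, *SLC7A11* was 11.7 times below the next member and 58.4 times below *SLC1A5*, only 4 of the 10 genes kept their rank, and *SLC43A1* went from place 6 to place 9. The near copies of *SLC7A5*, its pseudogenes *SLC7A5P1* and *SLC7A5P2*, had at most 3 and 5 counts in a library against at least 10791 for the gene. How reads that fit more than one gene were counted is not known, so these counts do not tell how many reads were shared.

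None of the 10 transporters differed between the groups beyond the test's threshold. All 10 passed the filter, and 5 had a log2 fold change above 0 and 5 below it under the shATGL label (8 were lower with the length and GC trends corrected), where 51.9% of all genes were above 0, and their median log2 fold change was −0.01, against 0.01 over all genes tested. The adjusted p-values, over all 19149 genes, ran from 0.392 to 0.966 (edgeR's quasi-likelihood test). DESeq2 and limma voom with quality weights also gave 0 members an adjusted p-value under 0.05. In voom *SLC7A6* and *SLC7A11* were just above that threshold (adjusted p = 0.0512 and 0.0541), where 10.8% of all genes were under it. At an unadjusted p-value under 0.05 there was 1 member in edgeR, *SLC7A6*, where 11.7% of all genes reached it. The 2 groups did not overlap in 2 of the 10 members, higher for *SLC7A6* and lower for *SLC43A1*, and did not overlap for 17.3% of all genes (7.93% higher, 9.38% lower). For a single gene the exact permutation test (two-sided, 20 relabellings) has 0.1 as its smallest p.

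*SLC7A11*, on chromosome 4 from 138164097 to 138242349, was the most variable transporter. It was at 3.75, 5.97 and 4.87 CPM in shNC 1, 2 and 3, from 272, 355 and 345 counts. In shATGL 1, 2 and 3 it was at 9.39, 7.93 and 3.81 CPM, from 696, 607 and 229 counts. shATGL 1 and 2 were above all shNC libraries, and shATGL 3 was at the level of the lowest of them. The fold change was 1.45 with a 95% confidence interval of 0.856 to 2.46 (log2 fold change 0.54 with an SE of 0.33, adjusted p = 0.532 from edgeR, exact permutation p = 0.3). Counting error was at most 6.61% of its value, well under its coefficient of variation of 22.7% in shNC and 41.1% under the shATGL label. Without shATGL 3 the log2 fold change was 0.83 (adjusted p = 0.0341 from edgeR), without shATGL 1 it was 0.28 (adjusted p = 0.900), and with each library left out in turn it lay between these values. With each library's trend with length and GC content corrected it was 0.18 (adjusted p = 0.728). In bulk RNA, fewer expressing cells and less RNA per cell cannot be told apart.

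The heavy chain and the other light chains varied within narrower limits. *SLC3A2* (chromosome 11, 62856102 to 62888875) was at 169, 172 and 184 CPM in shNC and at 154, 165 and 179 CPM in shATGL 1, 2 and 3 (log2 fold change −0.07 with an SE of 0.07, adjusted p = 0.695 from edgeR). The groups overlapped, with shATGL 1 the lowest of the 6, and without shATGL 3 the log2 fold change was −0.13 (adjusted p = 0.163). *SLC7A5* (chromosome 16, 87830023 to 87869488) was at 183, 181 and 189 CPM in shNC and at 173, 171 and 198 CPM under the shATGL label. Here shATGL 1 and 2 were below and shATGL 3 above every shNC library, and the log2 fold change was −0.03 (95% confidence interval −0.20 to 0.14, adjusted p = 0.884 from edgeR), but −0.10 without shATGL 3 (adjusted p = 0.168) and 0.01 without shATGL 2.

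*SLC7A6*, on chromosome 16 from 68264516 to 68301823, had the smallest unadjusted p-value of the family. It was at 84.2, 80.6 and 77.7 CPM in shNC and at 91.8, 93.1 and 91.3 CPM under the shATGL label. Every shATGL library was above every shNC library, and the fold change was 1.14 with a 95% confidence interval of 1.03 to 1.25 (log2 fold change 0.19 with a standard error of 0.06, p = 0.0141 and adjusted p = 0.392 from edgeR, exact permutation p = 0.1). It shares 3371 bases of exon with *SLC7A6OS*, a gene on the opposite strand, and the strand setting of the counting is not given in the sources used here, so reads of that stretch could have been counted on either gene. *SLC7A6OS* was at 34.7, 30.7 and 32.5 CPM in shNC and at 24.4, 25.1 and 25.2 CPM under the shATGL label (log2 fold change −0.39, adjusted p = 0.392 from edgeR). The pair thus went in opposite directions without overlap. The sum of both genes was 113 ± 4.75 CPM in shNC, against 117 ± 1.11 CPM under the shATGL label (SD, n = 3 each), with overlapping groups (exact permutation p = 0.4).

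The other exchangers and carriers that need no heavy chain were also within the test's limits. *SLC1A5* was at 300.3, 299.8 and 320 CPM in shNC and at 273, 266 and 326 CPM under the shATGL label (log2 fold change −0.09 with an SE of 0.09, adjusted p = 0.690 from edgeR). As for *SLC7A5*, shATGL 3 was the highest of the 6 libraries and shATGL 1 and 2 the lowest. *SLC1A4* (chromosome 2, 64988477 to 65023865) ranged from 100.8 to 104.1 CPM in shNC and from 91.2 to 102 CPM under the shATGL label (log2 fold change −0.09, adjusted p = 0.566 from edgeR). *SLC43A1* (chromosome 11, 57484534 to 57515786) was at 62.9, 62.3 and 65.7 CPM in shNC and at 59.4, 57.3 and 61.9 CPM under the shATGL label. Its groups did not overlap, and the log2 fold change was −0.10 (95% confidence interval −0.25 to 0.05, adjusted p = 0.560 from edgeR). *SLC7A1* (chromosome 13, 29509410 to 29595688) was at 203, 209 and 194 CPM in shNC and at 187, 188 and 237 CPM under the shATGL label. It was highest in shATGL 3 and lowest in shATGL 1 and 2, and its log2 fold change was 0.01 with all libraries (adjusted p = 0.966 from edgeR) and −0.11 without shATGL 3 (adjusted p = 0.191).

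The glutamine importers of the SLC38 family showed the reverse arrangement. *SLC38A1* (chromosome 12, 46183063 to 46270017) was at 131, 148 and 110.4 CPM in shNC and at 158, 150.2 and 107.5 CPM under the shATGL label. *SLC38A2*, its neighbour on chromosome 12 from 46358189 to 46372867, was at 165, 164 and 135 CPM in shNC and at 182, 180.2 and 132 CPM under the shATGL label. For both genes the third library of each group was the lowest of its group, and shATGL 1 and 2 were the highest of the 6. The log2 fold changes were 0.09 for each (standard error 0.16 and 0.14, adjusted p = 0.841 and 0.800 from edgeR). They were 0.24 and 0.23 without shATGL 3 (adjusted p = 0.187 and 0.128) and −0.10 and −0.08 with the length and GC trends corrected. The ratio of *SLC38A2* to *SLC38A1*, both in RPKM, was 1.81 ± 0.115 (SD, n = 3) in shNC and 1.82 ± 0.0576 (SD, n = 3) under the shATGL label (exact permutation p = 1).

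**Figure D2:**
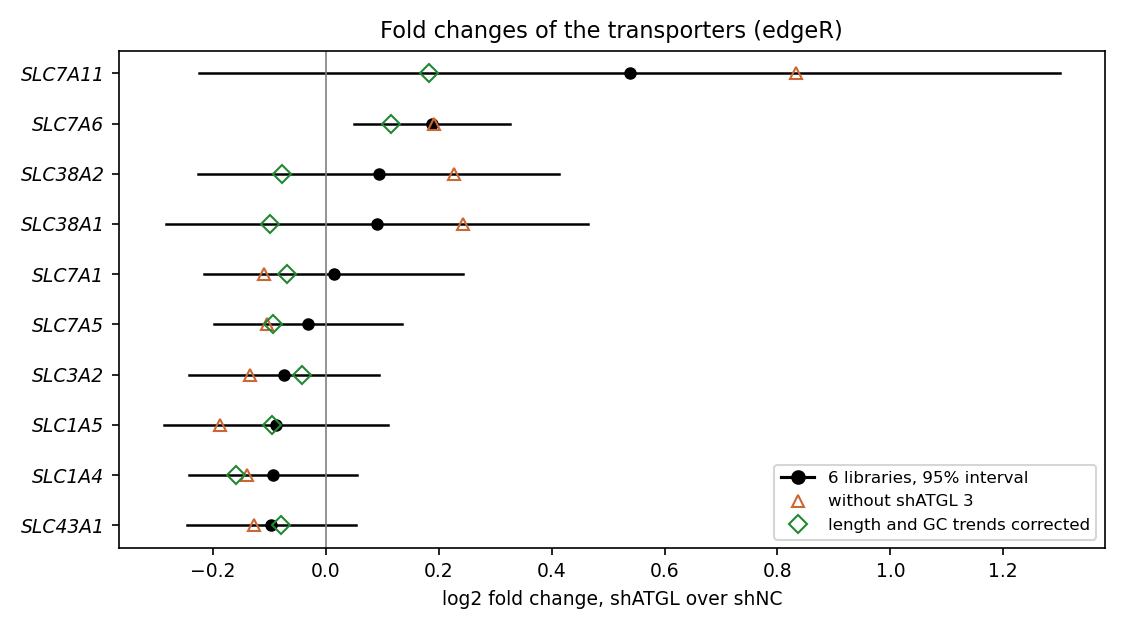
log2 fold change (x axis) of each transporter under the shATGL label over shNC from edgeR, with its 95% confidence interval; triangles leave out shATGL 3 and diamonds are the fit corrected for length and GC trends. With all 6 libraries only the interval of *SLC7A6* lies off 0, and leaving out shATGL 3 moves *SLC7A11* from 0.54 to 0.83.

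Spread between replicates depended on the third library of each group. With all libraries it was larger under the shATGL label for 9 of the 10 transporters, *SLC7A6* being the exception, and without shATGL 3 for 2, *SLC3A2* and *SLC1A4*. The median coefficient of variation of the members was 3.89% in shNC and 9.86% under the shATGL label, or 2.23% without shATGL 3. Over the 13935 genes with a mean of at least 1 CPM these medians were 7.43% and 10.1%, and 65.8% of the genes varied more under the shATGL label. Without shATGL 3 the median over these genes was 3.86% under the shATGL label, and 28.8% of them varied more there. Leaving out shNC 3 instead lowered the median in shNC to 1.17% for the members and to 4.4% over these genes. A coefficient from 2 libraries is not strictly comparable with one from 3. The transporters with the widest spread over the 6 libraries were *SLC7A11* (2.501 times between the highest and lowest library), *SLC38A1* (1.47 times) and *SLC38A2* (1.38 times). These 3 genes also have the lowest GC content of the 10, 35.4%, 41.3% and 38.1% of the longest transcript, while the 2 with the highest, *SLC1A5* (61.3%) and *SLC7A5* (61.1%), were highest in shATGL 3. Next in GC content, *SLC43A1* (58.2%) and *SLC3A2* (57.4%) were highest in shNC 3, and *SLC7A1* (52.7%) in shATGL 3. *SLC7A11* and *SLC38A1* also have the longest transcripts of the 10 (9645 and 8066 bases). Across all genes the libraries deviated with GC content and length as given above (Spearman's rho). Whether either caused the spread of the transporters was not tested. In the fit that corrected both trends the smallest adjusted p-value of a transporter was 0.384 (edgeR).

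**Figure D3:**
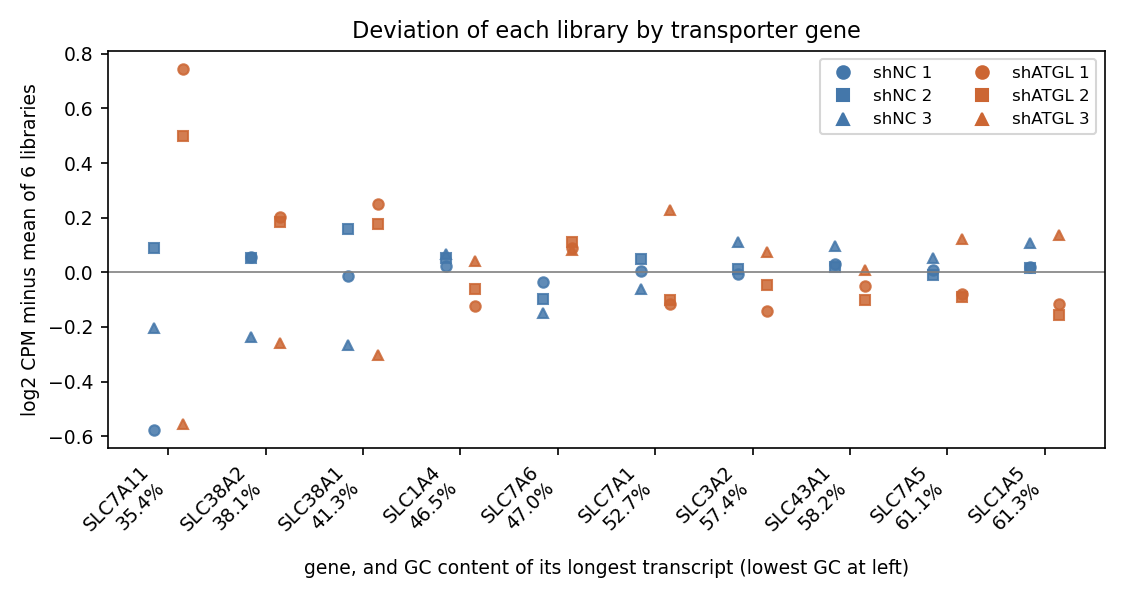
log2 CPM of each library minus the mean of the 6 libraries (y axis) for the 10 transporters, ordered by the GC content of the longest transcript. At the left, *SLC7A11*, *SLC38A2* and *SLC38A1* are high in shATGL 1 and 2 and low in shATGL 3, and at the right *SLC7A5* and *SLC1A5* are arranged the other way. Beside these, *SLC3A2* and *SLC43A1* are highest in shNC 3.

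Without shATGL 3, 3 of the 10 transporters had an adjusted p-value under 0.05, where 14.0% of all 19954 genes tested in that fit did (7.94% higher, 6.07% lower). These were *SLC7A11*, *SLC7A6* (log2 fold change 0.19, adjusted p = 0.0489 from edgeR) and, lower, *SLC1A5* (log2 fold change −0.19, adjusted p = 0.0420 from edgeR). None of the 3 reached a fold change of 2.

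Per exon length, RNA of the heavy chain was less abundant than the summed RNA of the light chains that can join it. Per coding length *SLC3A2* (92.4 ± 4.10 RPKM in shNC, SD, n = 3) was also below *SLC7A5* (121 ± 2.61 RPKM, SD, n = 3). *SLC3A2* has 5178 bases of exon but 2222 in its longest transcript, against 4745 and 4537 for *SLC7A5*. In shNC *SLC3A2* was at 175 ± 7.76 CPM and *SLC7A5* at 185 ± 3.97 CPM (SD, n = 3 each). Per longest transcript *SLC3A2* would thus stand above *SLC7A5*, the reverse of their order per exon or coding length. The comparison of heavy and light chains therefore depends on the length used, and their ratio per longest transcript was not computed. Light chains of *SLC3A2* were taken as *SLC7A5*, *SLC7A6*, *SLC7A7*, *SLC7A8*, *SLC7A10* and *SLC7A11*. *SLC7A5* held 74.9 ± 0.988% (SD, n = 3) of their summed RPKM in shNC and 72.1 ± 1.89% (SD, n = 3) under the shATGL label, and *SLC7A6* held 20.5 ± 0.894% and 23.1 ± 1.46% (SD, n = 3 each). For both, the groups did not overlap (exact permutation p = 0.1 each, the smallest possible), and as *SLC7A6* is part of the sum, both shares carry the doubt about reads shared with *SLC7A6OS*. With *SLC7A6* left out of the light chains, a calculation added after these values were seen, *SLC7A5* held 94.3 ± 0.451% in shNC and 93.8 ± 0.685% under the shATGL label (SD, n = 3 each), and the groups overlapped (exact permutation p = 0.3). *SLC7A7*, an exporter of arginine typical of monocytes and macrophages, held 3.39 ± 0.181% in shNC and 3.13 ± 0.147% under the shATGL label (SD, n = 3 each, exact permutation p = 0.2). *SLC7A11* made up 0.749%, 1.204% and 0.964% of the light chains for shNC 1, 2 and 3, then 1.91%, 1.62% and 0.703% for shATGL 1, 2 and 3 (exact permutation p = 0.4). *SLC7A8* and *SLC7A10* were each at most 0.227% in every library.

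The ratio of *SLC3A2* to the sum of these light chains, in RPKM, was 0.629, 0.646 and 0.678 in shNC and 0.584, 0.626 and 0.616 under the shATGL label. All 3 shATGL libraries were below all 3 shNC libraries, by a mean of −0.10 on the log2 scale, and the exact permutation test gave p = 0.1, the smallest it can give. With *SLC7A6* left out of the sum the ratio was 0.819 ± 0.0221 in shNC and 0.792 ± 0.0305 under the shATGL label (SD, n = 3 each), with overlapping groups (exact permutation p = 0.3). The ratio of *SLC7A5* to *SLC1A5*, the leucine and glutamine exchangers, was 0.423 ± 0.007 in shNC and 0.441 ± 0.0124 under the shATGL label (SD, n = 3 each, exact permutation p = 0.2). The ratio of *SLC1A5* to *SLC1A4* was 6.22 ± 0.163 and 6.24 ± 0.415 (SD, n = 3 each, exact permutation p = 1).

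**Figure D4:**
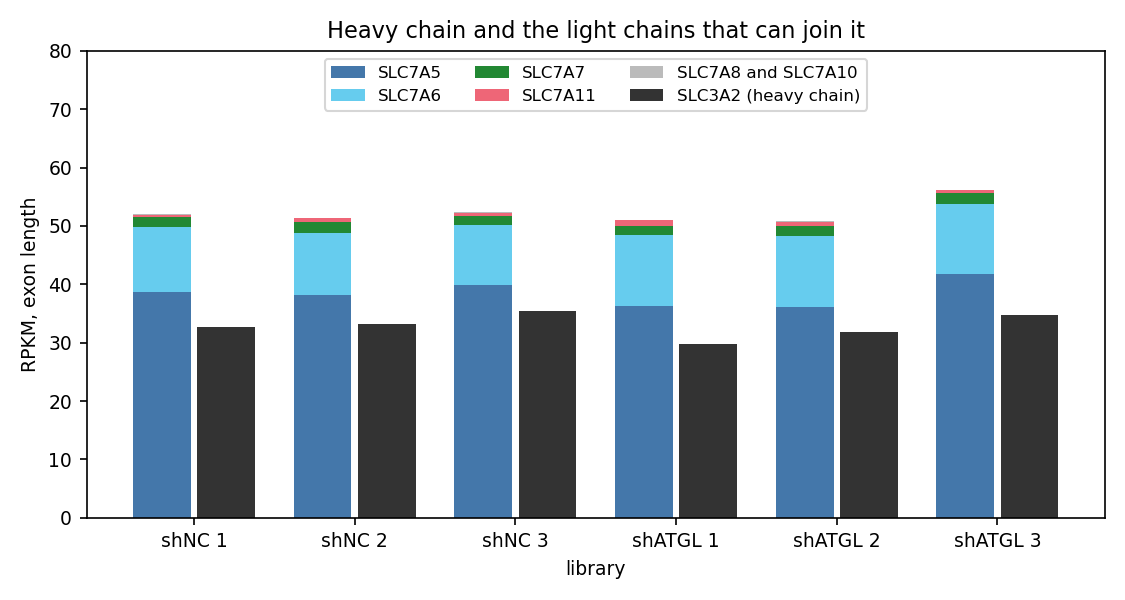
RPKM on exon length (y axis) of the heavy chain gene *SLC3A2* (dark bars) beside the stacked light chain genes in each library (x axis). *SLC7A5* fills most of each stack, *SLC7A11* is a thin band, and the dark bar is lower than the stack in all 6 libraries.

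Other amino acid carriers, listed by name as plasma membrane carriers, did not differ beyond the threshold either. Their location in these cells was not measured. Of 26 listed genes, 15 were tested and 6 had no count in any library. The tested genes were higher in 9 and lower in 6 cases, with a median log2 fold change of 0.03, and 0 had an adjusted p-value under 0.05 (smallest 0.514 from edgeR) and 0 an unadjusted one, and DESeq2 and voom gave 0 as well. The most abundant were *SLC38A10* (208 ± 4.46 CPM in shNC and 221 ± 1.67 CPM under the shATGL label), *SLC38A5*, a glutamine carrier (47.8 ± 1.09 and 43.8 ± 4.07 CPM), *SLC36A4* (41.6 ± 3.45 and 45.3 ± 7.09 CPM) and the taurine carrier *SLC6A6* (28.8 ± 1.56 and 30.9 ± 2.04 CPM, SD, n = 3 each). Among lysosomal carriers 8 of 9 were tested, 2 higher and 6 lower, with a median of −0.04 and 0 past either threshold, also in DESeq2 and voom. *SLC66A1*, which exports cationic amino acids from lysosomes, was at 92.8 ± 2.28 CPM in shNC and 89.5 ± 3.10 CPM under the shATGL label, and the proton-coupled exporter *SLC36A1* at 65.1 ± 1.496 and 71.0 ± 1.93 CPM (SD, n = 3 each). *MFSD12*, which brings cysteine into lysosomes, was at 66.8 ± 2.75 and 65.3 ± 4.43 CPM, and *SLC15A4* at 19.2 ± 0.432 and 18.7 ± 1.11 CPM (SD, n = 3 each).

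Genes that sense the carried amino acids for mTORC1 were all 33 tested, 19 higher and 14 lower, with a median of 0.02 and 0 at an adjusted p-value under 0.05 (smallest 0.392 from edgeR). DESeq2 gave 0, voom 5, where it gave 10.8% of all genes, and the edgeR fit without shATGL 3 gave 7, where it gave 14.0% of all genes. Unadjusted p-values were under 0.05 for 5, which is 1 higher and 4 lower, beside 5.77% of all genes higher and 5.94% lower. The 4 lower ones, named after their values were seen, were *CASTOR1*, the cytosolic arginine sensor (2.49 ± 0.0511 and 1.36 ± 0.166 CPM, SD, n = 3 each), the Ragulator subunits *LAMTOR2* and *LAMTOR4* (log2 fold change −0.28 and −0.37) and the GATOR2 subunit *SEH1L* (−0.21). *SESN3*, a member of the sestrin family, was at 206, 233 and 167 CPM in shNC and at 250, 254 and 146 CPM under the shATGL label, with the third library lowest in each group, as for *SLC38A1*. *MTOR* itself had a log2 fold change of 0.13 and *LAMTOR1* of −0.18 (adjusted p = 0.445 and 0.447 from edgeR).

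Regulators of transporter transcription were 21, all tested, 8 higher and 13 lower, with a median of −0.03 and 0 at an adjusted p-value under 0.05 with edgeR or DESeq2, 2 with voom (10.8% of all genes) and 6 with edgeR without shATGL 3 (14.0% of all genes). *ATF4*, which drives the amino acid response, was at 383, 360 and 410 CPM in shNC and at 318, 312 and 364 CPM under the shATGL label, with overlapping groups (log2 fold change −0.21, adjusted p = 0.399 from edgeR), and it was 1 of the 2 genes of this list with an unadjusted p-value under 0.05, where 11.7% of all genes had one. *ATF3*, named after its values were seen, was the other gene with an unadjusted p-value under 0.05, at 1.07 ± 0.198 CPM in shNC and 1.65 ± 0.448 CPM under the shATGL label (SD, n = 3 each, adjusted p = 0.425 from edgeR). *MYC*, the small MAF gene *MAFG*, whose product pairs with NRF2, and the kinase gene *EIF2AK1* had log2 fold changes of −0.08, −0.04 and −0.03.

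Enzymes that use the carried amino acids were lower in 22 of 25 tested genes and higher in 3, with a median log2 fold change of −0.12 against 0.01 over all genes. Again 0 had an adjusted p-value under 0.05 (smallest 0.392 from edgeR), and 3 had an unadjusted one, all lower, where 5.94% of all genes were lower at that threshold. DESeq2 gave 0. Voom gave 5, all lower (5.27% of all genes lower), and edgeR without shATGL 3 gave 7, of which 6 were lower (6.07% of all genes lower). *GLUL*, glutamine synthetase, was at 433 ± 19.9 CPM in shNC and 386 ± 27.0 CPM under the shATGL label, and *ODC1*, the first enzyme of polyamine synthesis from ornithine, at 345 ± 13.3 and 304 ± 17.8 CPM (SD, n = 3 each, adjusted p = 0.418 and 0.392 from edgeR). The third was *GLUD1*, glutamate dehydrogenase, named after its values were seen, with a log2 fold change of −0.18. *SHMT2* and *TXNRD1* had log2 fold changes of −0.14 and −0.12 (adjusted p = 0.521 and 0.535 from edgeR). The summed level of the 27 listed genes was 2434, 2389 and 2501 CPM in shNC and 2142, 2157 and 2410.0 CPM under the shATGL label, with shATGL 3 inside the shNC range.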

How the data were processed

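Reads of 6 MV4-11 libraries were cleaned with FASTP, and the authors deposited raw counts per Ensembl gene, without normalization. The aligner, counting tool and strand setting are not given in the sources used here. The submitters' processing notes name the build mm10, a mouse genome, although the identifiers are human. Names matched 61757 of 61806 identifiers. Positions and lengths are from GENCODE 29 (GRCh38), a build not tied to the counting.

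The deposited counts were tested with edgeR 4.0.16 under R 4.3.3 (filterByExpr with a minimum count of 10 and a minimum total of 15, TMM, quasi-likelihood test, Benjamini-Hochberg over 19149 genes), and with DESeq2 1.42.0 and limma 3.58.1 as alternatives. Single values were compared by exact two-sided permutation over 20 relabellings. Tests were tested on simulated data. Trends with length and GC content were corrected by natural splines with 4 degrees of freedom. The members and lists were chosen with earlier results of these data known. Named are the members, *PNPLA2*, the 4 most abundant tested genes of each list, genes with an adjusted p-value under 0.05, near copies, and the 3 genes most like *SLC7A11*, and any other gene is marked as chosen later. One gene that this rule names is not reported here. Markers beyond these are named as examples. Intervals cover counting and replicate error of these libraries only.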

Additional observations from a re-analysis of the deposited data

How the results depend on the processing

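In all 15 alternatives to the reported fit, 0 of the 10 transporters passed both thresholds. The number of genes called overall was 1 as reported, 3 under upper-quartile scaling (1 of them higher), 23 by DESeq2 (17 of them higher), 266 (241 higher, 25 lower) with limma voom with quality weights, 0 with the replicate number as a block, and 0 to 319 when each library was left out. It was 319 (299 higher, 20 lower) without shATGL 3, 2 without shNC 1, and 0 without shNC 3 or without shATGL 1. The median log2 fold change of the transporters, −0.0086 as reported, was −0.0884 with voom, −0.0785 with the length and GC trends corrected and −0.1067 to 0.0196 with each library left out.

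Directions turned for 4 transporters. *SLC7A1* was at −0.0940 with voom, −0.0693 with the trends corrected, −0.0155 without shNC 3 and −0.1085 without shATGL 3 (range with each library left out, −0.1085 to 0.0734). *SLC38A1* was at −0.0989 with the trends corrected, −0.0145 without shNC 3 and −0.0131 without shATGL 1 (range −0.0145 to 0.2423), and *SLC38A2* at −0.0772 with the trends corrected. *SLC7A5* was at 0.0004 without shATGL 1 and 0.0060 without shATGL 2 (range −0.1049 to 0.0060). The cause was not tested. Ranked per coding length, 4 of the 10 kept their place. The ratio of *SLC3A2* to its light chains kept its direction in 9 alternatives (−0.1208 to −0.0494 on the log2 scale, −0.1208 to −0.0667 with each library left out), as did the share of *SLC7A11* (0.1872 to 0.7889 percentage points). Leaving *SLC7A6* out of the light chains was chosen after seeing the data.

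Same-numbered libraries of the groups had correlations of their deviations of 0.0661, 0.224 and 0.332 over 14642 genes, against −0.278 to 0.175 for different numbers, and nothing in the labels ties them, so the numbers were not taken to pair the libraries. With the replicate block *SLC7A11* was at 0.47 (adjusted p = 0.511) and *SLC7A6* at 0.19 (adjusted p = 0.170, edgeR), and the block changed no transporter's call. Beyond depth, 3 libraries a group and 1 cell line limit these results.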

Other observations

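The genes whose pattern over the 6 libraries was most like that of *SLC7A11* were sought among 13904 genes with a mean of at least 1 CPM, by the root-mean-square difference of centred log2 CPM. The closest was *N4BP2* (0.0859), which shNC 1, 2 and 3 held at 8.07, 10.7 and 9.21 CPM, and shATGL 1, 2 and 3 at 18.3, 16.3 and 7.21 CPM. ENSG00000215493 (0.0867) and ENSG00000215146 (0.0877) followed, against a median difference of 0.529 over all genes compared. The libraries differed in their trends with length and GC content, as given above, and likeness says nothing of shared control.

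The surface marker *PTPRC* (CD45), an identity marker named here after its values were seen, had 106, 122 and 86.7 CPM for shNC, then 175, 186 and 88.2 CPM under the shATGL label (log2 fold change 0.51, adjusted p = 0.480 from edgeR), an arrangement of libraries like that of *SLC7A11* and *SLC38A1*. *LYZ* (841 ± 43.7 and 737 ± 34.6 CPM) and *CEBPA* (626 ± 33.5 and 547 ± 41.7 CPM, SD, n = 3 each) were the markers with an unadjusted p-value under 0.05 (0.0165 and 0.0291, adjusted p = 0.392 and 0.399 from edgeR).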
